A study of Mus musculus with 4 samples.

Results

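The histone genes are the 67 genes whose symbol begins with H1f, H2ac, H2bc, H3c or H4c among the 27179 genes of the deposited expression table, and they were followed here in the LICs (leukemia-initiating cells) of a murine acute myeloid leukemia. They hold 10 H1, 17 H2A, 16 H2B, 12 H3 and 12 H4 genes. Of these, 22 lie on chromosome 13 between 21715711 and 22043658, 31 on the same chromosome between 23531044 and 23934913, and 10 on chromosome 3 between 96219885 and 96270192 (GRCm38.p6, RefSeq). The remaining 4 lie outside the clusters, H1f0 and H1f7 on chromosome 15 and H1f8 and H1f10 on chromosome 6. For 57 of the 67 the mean FPKM (fragments scaled by the length of the gene model and by the mapped reads of the library) over the libraries was at least 0.5, and these were compared between the groups.

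The leukemia was made with the MLL-AF9 fusion oncogene, which a retrovirus carried into lineage-negative fetal liver cells before their transplantation into irradiated C57BL/6 recipients. The groups were 2 libraries labelled WT and 2 labelled CD274-null, the latter from CD274 knockout donors on the C57BL/6 background. All 4 carry MLL-AF9, and the labels give Mac-1+/c-Kit+ cells sorted from bone marrow at an age of 6 weeks. The sources used here do not say whether the libraries of a group came from separate animals or from which round of transplantation, so the p-values measure the spread between these libraries, which may be technical. Sorted cells are named in the labels, and tissue RNA in the methods.

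Histones are the proteins on which DNA is wound. Pairs of H2A, H2B, H3 and H4 form the core of the nucleosome, and H1, the linker histone, binds the DNA between nucleosomes. Most genes of the clusters are replication-dependent: they have no introns, are transcribed mainly in S phase under NPAT, and give mRNAs that end in a conserved stem-loop, bound by SLBP, instead of a poly(A) tail. H1f0 and H1f10 are replication-independent linker histone genes with ordinary polyadenylated mRNAs, and H1f0 is known for high levels in cells that have stopped dividing or are differentiating. TruSeq RNA v2 libraries are made from poly(A)-selected RNA, so that histone mRNAs without a tail enter them only in part, and the levels below are those of the captured RNA.

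The stem-loop is shown for members whose values carry the results, with the stem and loop in capitals and 5 bases on each side, read from GENCODE M21 transcripts of GRCm38:
H4c6: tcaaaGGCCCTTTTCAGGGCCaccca
H4c14: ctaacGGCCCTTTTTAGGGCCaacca
H1f2: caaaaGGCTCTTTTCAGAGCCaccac
H2ac6: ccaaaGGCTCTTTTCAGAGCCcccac
The search took a stem GGNNCT, a loop TTTN and a pairing stem AGNNCC on the transcript's strand within 150 bases after the stop codon. Of the 51 members whose annotated transcript ran at least 40 bases past the stop codon, 41 held it, at a median of 32 bases after the stop. Among all 20950 coding genes of the annotation with such a transcript, 46 held it, or 0.22%. By class it was found in 10 of 10 H2A, 8 of 9 H3, 10 of 11 H4, 9 of 12 H2B and 4 of 9 H1 genes. H1f0, H2bc4 and H2bc21 are among the members with no match in the annotated transcript. A poly(A) signal (AATAAA or ATTAAA within the last 40 bases) closed an annotated transcript of 16 members and of 79.6% of all coding genes. Of the 16 members, 10 held the stem-loop as well, counted over all transcripts of a gene. In H2bc22 the signal and the stem-loop lie in different transcripts.

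Members of a class share much of their sequence, which limits how far reads of 50 bases can be assigned to 1 gene. The first 60 coding bases of 3 H4 genes show this, with the bases that differ from H4c9 in capitals:
H4c9: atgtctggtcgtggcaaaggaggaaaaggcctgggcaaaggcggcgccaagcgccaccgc
H4c6: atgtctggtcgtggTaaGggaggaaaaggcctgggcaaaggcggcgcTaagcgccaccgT
H4c14: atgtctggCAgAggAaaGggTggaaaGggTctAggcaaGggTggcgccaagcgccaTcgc
Over the 312 coding bases, H4c6 was 95.5% and H4c14 88.5% identical to H4c9. Of the 50-base stretches in a member's coding sequence, a median of 72.6% occurred in at least 1 other member, and 49 of the 67 members shared over 50%. H1f0, H1f1 and H1f5 shared none, H4c14 6.1%, H4c6 50.6% and H2bc4 97.6%. The sources used here do not state how reads that fit several genes were counted, so single H2A, H2B, H3 and H4 values are uncertain where the shared part is large.

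Histone promoters were read from RefSeq for 62 of the 67 members, 250 bases before to 50 bases after the start of transcription, and searched on both strands. The octamer ATTTGCAT, bound by OCT1, was present in 6 of 17 H2A and 6 of 14 H2B promoters and in 0 of the H1, H3 and H4 promoters, against 1.8% of 27025 promoters. CCAAT, bound by NF-Y, was present in each of the 17 H2A, 14 H2B and 10 H3 promoters, in 7 of 10 H1 and in 3 of 11 H4 promoters, against 37.9% of all. TATAAA was present in 54.8% of the histone promoters and in 14.2% of all. The 250 bases before the start are given for H2ac6 (chr13:23683960-23684209, minus strand) and for H1f0 (chr15:79027962-79028211, plus strand), with these motifs in capitals, because the H2ac6 sequence covers the 239 bases between H2ac6 and its neighbour H2bc4, which is transcribed the other way, and the first bases of H2bc4:
H2ac6: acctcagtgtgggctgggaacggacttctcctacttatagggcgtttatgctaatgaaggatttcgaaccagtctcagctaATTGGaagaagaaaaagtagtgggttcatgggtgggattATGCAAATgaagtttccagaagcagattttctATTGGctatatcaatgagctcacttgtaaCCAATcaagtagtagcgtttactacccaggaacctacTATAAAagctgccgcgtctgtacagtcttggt
H1f0: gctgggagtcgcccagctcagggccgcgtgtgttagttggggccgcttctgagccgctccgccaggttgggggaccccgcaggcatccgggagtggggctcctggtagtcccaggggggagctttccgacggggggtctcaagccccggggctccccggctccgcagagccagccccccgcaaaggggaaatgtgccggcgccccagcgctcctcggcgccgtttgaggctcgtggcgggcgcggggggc
The H2ac6 sequence holds the octamer, 3 CCAAT matches and TATAAA, and none of these letters occurs in the H1f0 sequence.

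The deleted gene was examined first. Cd274 stood at 2.80 and 0.945 FPKM in WT replicates 1 and 2, and at 1.43 and 2.29 FPKM in the libraries labelled CD274-null, so its level did not separate the groups, and every direction below rests on the labels. The FPKM steps imply that each library was scaled by a total of 8843737 to 11568565 reads, below the mapped reads that the methods describe, and what that total counts is not given in the sources used here. Reads could be recovered for 99.96% of the 17083 genes above 0 in at least 2 libraries. A single read was worth 0.277 to 0.362 FPKM for a gene model of 312 bases, the coding length of H4. The median member had 10 and 14 reads in WT against 3 and 8 in CD274-null LICs. Markers of the labelled cells were present in each library: Itgam (Mac-1) between 100 and 174 FPKM, Kit between 6.59 and 19.5, and Hoxa9 between 71.3 and 75.8.

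Among core and linker histones the captured RNA was unequally spread. Linker histone genes summed to 174 and 228 FPKM in WT against 109 and 198 in CD274-null LICs, between 46.1% and 57.5% of all histone FPKM. H2A genes summed to 19.3 and 26.5 against 11.6 and 15.6, and the groups did not overlap. H3 genes summed to 15.9 and 26.7 against 5.97 and 17.1, and H4 genes to 45.6 and 114 against 18.6 and 55.8, with overlapping groups. H2B genes summed to 47.6 and 99.4 against 55.5 and 107, and the class was not lower in CD274-null LICs. In every class, both CD274-null replicate 2 exceeded CD274-null replicate 1 and WT replicate 2 exceeded WT replicate 1. In bulk samples, fewer cells of a type and less RNA per cell cannot be told apart.

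**Figure D1:**
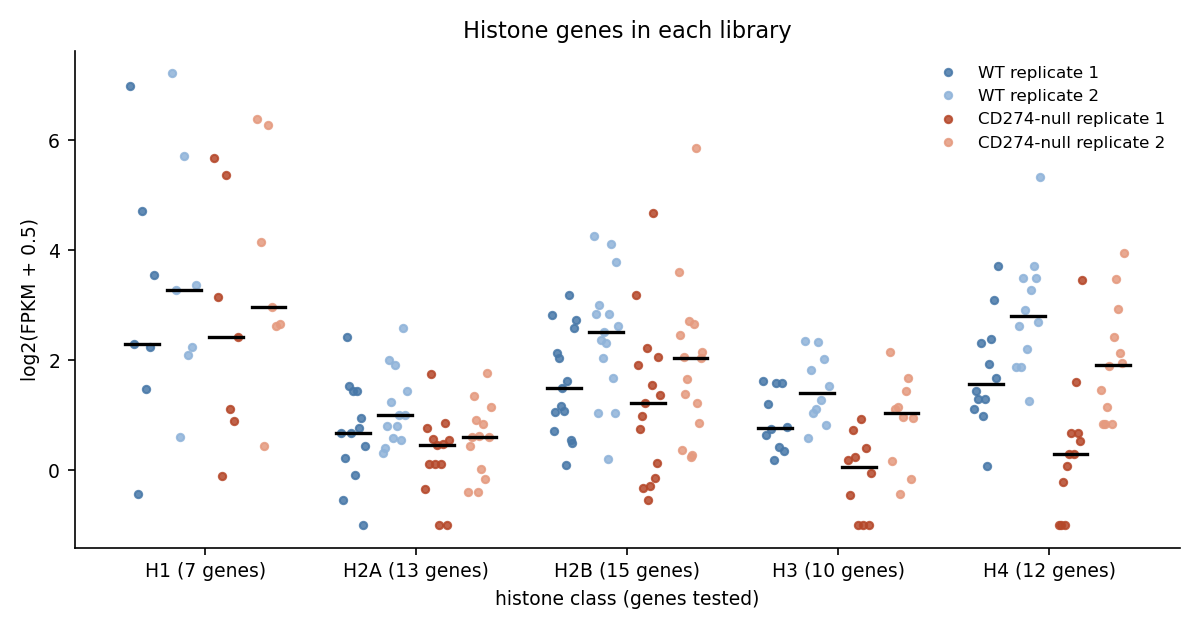
Each point is 1 of the 57 compared histone genes in 1 library, with log2(FPKM + 0.5) on the vertical axis, the classes along the horizontal axis, libraries by color and black lines at the class medians. In H4 the medians were 1.56 and 2.80 in WT against 0.29 and 1.92 in CD274-null LICs, and CD274-null replicate 1 had the lowest median in H2A, H2B, H3 and H4.

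The comparison of CD274-null with WT LICs asked whether loss of CD274 goes with a difference in histone mRNA. Most histone genes had lower values in CD274-null LICs: 48 of 57 had a log2 fold change (on the log2(FPKM + 0.5) scale) below 0, against 48.9% of the 13230 genes tested. The median was -0.72, where that of all genes was 0.01. Members of a class share sequence, so counts of histone genes, here and below, are not counts of independent observations and were not tested. Under the study's thresholds for candidates (unadjusted p under 0.01 and a change over 1.5-fold), 3 histone genes were lower, H4c6, H1f0 and H4c14, and 0 were higher. Among all genes tested, 1.24% were candidates lower and 2.39% candidates higher. For 25 of the 57, both CD274-null libraries lay below both WT libraries, against 21.8% of all genes. For 2, H2bc4 and H2ac11, both lay above, against 25.6%. H2ac11 had 4 reads in WT replicate 2 and 4 in CD274-null replicate 2, so these values differed by depth scaling alone. No histone gene had an adjusted p under 0.05 in limma with Benjamini-Hochberg adjustment (0.0756% of all genes did), and the lowest was 0.274. By unadjusted p, 15 of the 57 were under 0.05 in limma, 14 lower and 1 higher, H2bc4, where 5.7% of all genes were lower and 8.04% higher at that p. By voom, a count model run on the recovered reads, 6 of the 57 were under 0.05, no larger a share than the 13.7% of all genes.

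The size of this difference depended on single libraries. Within WT LICs, 47 of 57 histone genes were higher in replicate 2 than in replicate 1, against 54.9% of all genes. Within CD274-null LICs, 50 of 57 were higher in replicate 2, against 34.4% of all genes. CD274-null replicate 1 was the lowest library for 39 of the 57 and WT replicate 2 the highest for 35, against 8.57% and 29.2% of all genes. Without CD274-null replicate 1 the median of the histone genes was -0.21 and 33 of 57 were below 0. Without WT replicate 2 it was -0.44 with 39 below 0, without WT replicate 1 -0.90, and without CD274-null replicate 2 -1.06. In these fits 1 group is a single library that is assumed to vary like the other group, with 1 residual degree of freedom, so that calls gained or lost in them are weakly based.

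**Figure D2:**
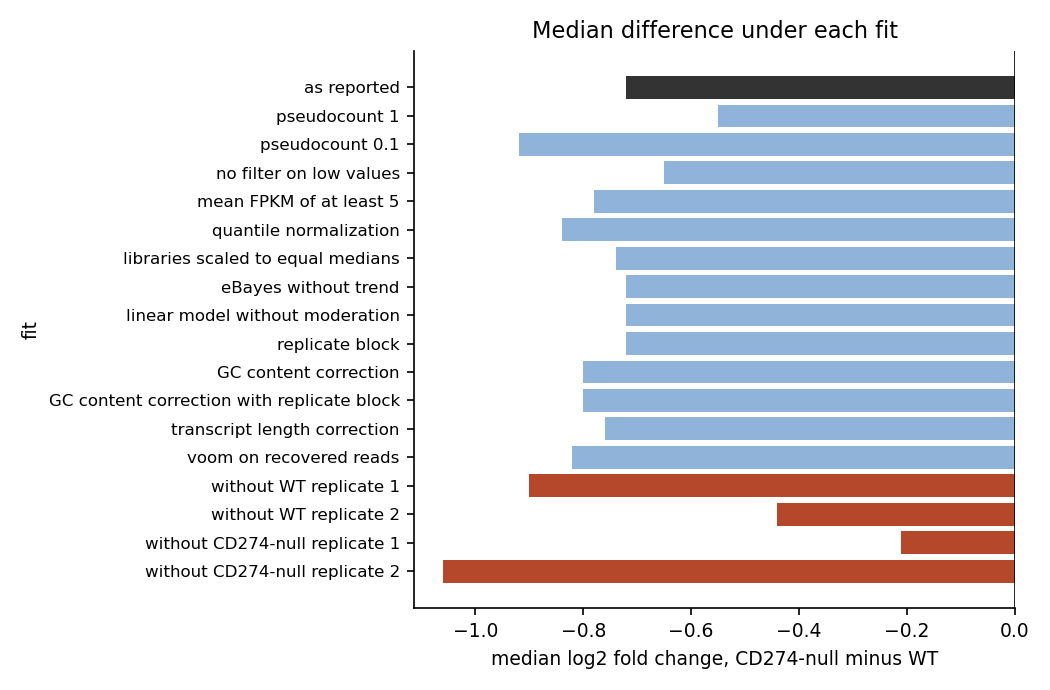
Bars give the median log2 fold change of the histone genes (CD274-null minus WT, horizontal axis) under the fit as reported (black), other settings (blue) and with 1 library left out (red). The median was below 0 under each of these fits and lay nearest to 0, at -0.21, without CD274-null replicate 1.

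By class, 12 of 13 H2A, 12 of 15 H2B, 10 of 10 H3, 11 of 12 H4 and 3 of 7 H1 genes had a log2 fold change below 0. The class medians were -0.65 for H2A, -0.27 for H2B, -0.77 for H3, -1.07 for H4 and 0.07 for H1. Candidates were 1 H1 and 2 H4 genes. With 1 library left out, the medians ranged from -1.83 to -0.40 for H4, from -1.31 to -0.31 for H3 and from -0.82 to -0.39 for H2A, and each was nearest to 0 without CD274-null replicate 1. Those of H2B (-0.75 to 0.06) and H1 (-0.67 to 0.56) changed sign. The classes were not tested against each other.

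**Figure D3:**
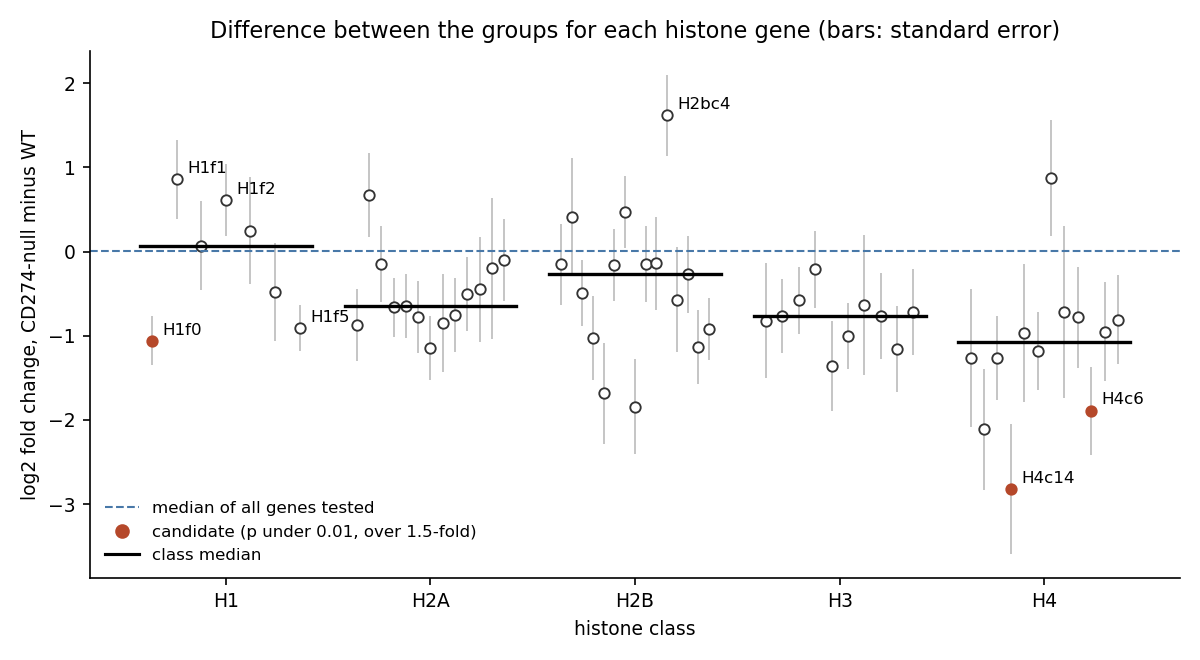
Each circle is 1 histone gene, with its log2 fold change (CD274-null minus WT) on the vertical axis, a bar of 1 standard error, filled circles for candidates, black lines at class medians and a dashed line at the median of all genes. All 10 H3 genes lie below 0, and H2bc4 at 1.62 stands highest among the 57.

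H1f0, the replication-independent linker histone gene (NCBI gene 14958, chromosome 15 from 79028212 to 79030504), had the highest FPKM of the 67 in each library. It stood at 126 and 148 FPKM in WT against 50.9 and 83.5 in CD274-null LICs, from 3340, 3445, 1032 and 1906 reads. Both CD274-null libraries lay below both WT libraries, and the CD274-null mean was 49.1% of the WT mean. The log2 fold change was -1.06 (SE, standard error, 0.29; limma adjusted p = 0.274). H1f0 stayed a candidate without CD274-null replicate 2, at -1.41, and not without any other library, and without CD274-null replicate 1 the value was -0.70. It lost the call under 12 of 17 alternatives, among them quantile normalization, equal medians, the GC and length corrections and voom, and its direction held in each.

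H1f2, a replication-dependent linker histone gene, was second among the linker histones and had overlapping groups. It stood at 25.6 and 51.7 FPKM in WT against 40.6 and 76.6 in CD274-null LICs, with a log2 fold change of 0.61 (SE 0.43, adjusted p 0.556). H1f1, of the same kind, had 4.4 and 9.2 against 8.33 and 17.2 FPKM, with a log2 fold change of 0.86 (SE 0.47, adjusted p 0.462). For both genes the lowest value was in WT replicate 1 and the highest in CD274-null replicate 2. H1f5, chosen after its values were seen, had 11.2 and 9.79 against 4.88 and 5.83 FPKM, non-overlapping groups and a log2 fold change of -0.91 (SE 0.27, adjusted p 0.295). H1f3 and H1f4 lay between 1.35 and 7.29 FPKM with overlapping groups. H1f10, the other replication-independent linker histone gene, was near the detection limit, at 0.244 and 1.02 against 0.426 and 0.851 FPKM.

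The make-up of the linker histone RNA differed between the groups. H1f0 was 72.3% and 64.7% of the H1 FPKM in WT against 46.7% and 42.3% in CD274-null LICs. H1f2 was 14.7% and 22.7% in WT against 37.3% and 38.8% in CD274-null LICs. The ratio of H1f0 to H1f2 was 4.91 and 2.85 in WT against 1.25 and 1.09 in CD274-null LICs. Both shares were further apart between the groups than within them. The shares and the ratio were set up after the values were seen and were not tested.

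**Figure D4:**
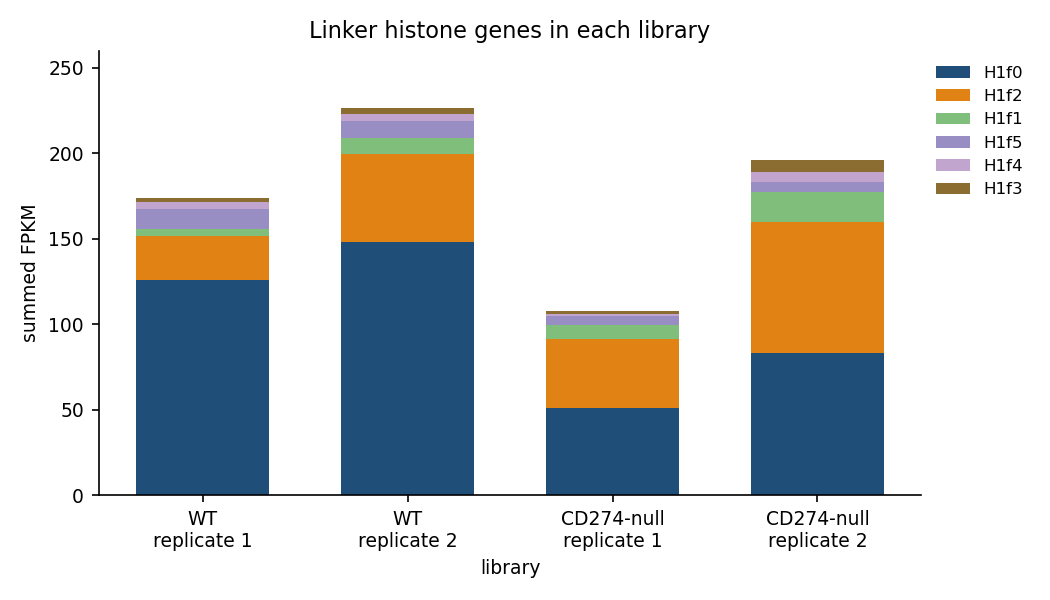
Stacked bars give the FPKM of the 6 linker histone genes above 1 FPKM on average (vertical axis) in each library (horizontal axis). The H1f0 segment is at most 83.5 FPKM in the CD274-null libraries and at least 126 in the WT libraries, while the H1f2 segment is highest, at 76.6, in CD274-null replicate 2.

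The replication-dependent H4 genes gave the lowest class median. H4c14 (Hist2h4, NCBI gene 97122, chromosome 3 from 96262934 to 96263317), of the cluster on chromosome 3, had 4.47 and 10.7 FPKM in WT against 0 and 1.73 in CD274-null LICs. These rest on 18 and 38 against 0 and 6 reads. A count of 0 allows up to 3 reads, or 0.975 FPKM in that library, which covers counting error only. The fitted log2 fold change was -2.82 (SE 0.77, adjusted p 0.274), and its size depends on the pseudocount because of the 0. The annotated transcript of H4c14 holds the stem-loop and also ends in a poly(A) signal.

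H4c6 (Hist1h4f, NCBI gene 319157, chromosome 13 from 23551286 to 23551668) had 8.03 and 10.7 against 1.09 and 3.86 FPKM, from 29 and 34 against 3 and 12 reads. The groups did not overlap, and the log2 fold change was -1.89 (SE 0.52, adjusted p 0.274). Both H4 genes stayed candidates without CD274-null replicate 2 but not without any other library: without CD274-null replicate 1 the log2 fold changes were -1.16 for H4c6 and -1.74 for H4c14. Each lost the call under 12 alternatives, among them a pseudocount of 0.1, quantile normalization, equal medians, the length correction and voom, and H4c14 also with the GC correction.

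The most abundant H4 gene, H4c9, had 12.6 and 39.9 against 10.5 and 15 FPKM and overlapping groups. Its log2 fold change of -0.81 (SE 0.53, adjusted p 0.527) was 0.00 without WT replicate 2 and -1.63 without WT replicate 1. H4c4 had 4.71 and 12.6 against 2.54 and 7.08 FPKM, and H4c3 had 3.32 and 9.13 against 0.725 and 10.6. H4c2 was the only H4 gene with a log2 fold change above 0, at 0.87 from 2, 6, 3 and 15 reads.

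H2B held the member with the highest log2 fold change. H2bc4 (Hist1h2bc, NCBI gene 68024, chromosome 13 from 23684199 to 23692480), a gene whose RefSeq span is far longer than the 728 bases of the gene model its FPKM implies, stood at 8.55 and 16.7 FPKM in WT against 25.0 and 57.5 in CD274-null LICs. Both CD274-null libraries lay above both WT libraries, from 72 and 124 against 161 and 417 reads, and the CD274-null mean was 326% of the WT mean. The log2 fold change was 1.62 (95% interval 0.47 to 2.78, SE 0.48) with an unadjusted p just above the candidate threshold (0.0134, limma) and an adjusted p of 0.291. It was 1.03 without CD274-null replicate 2 and 2.09 without WT replicate 2. H2bc4 made up 17.9% and 16.8% of the H2B FPKM in WT against 45.0% and 53.6% in CD274-null LICs. Without it, the H2B sum was 39.1 and 82.7 against 30.5 and 49.7 FPKM.

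H2bc8, the member that shares the most 50-base stretches with H2bc4 (77.1%), had 5.48 and 13.3 against 3.68 and 3.59 FPKM. Its groups did not overlap, in the opposite direction, and its log2 fold change was -1.13 (SE 0.44, adjusted p 0.349). By identity over the coding sequence H2bc23 was nearer to H2bc4, at 99.5%, and its log2 fold change was -0.15 with overlapping groups. The first 60 coding bases are shown for H2bc8, H2bc4 and H2bc21, with the bases that differ from H2bc8 in capitals:
H2bc8: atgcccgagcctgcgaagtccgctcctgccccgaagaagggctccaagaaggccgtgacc
H2bc4: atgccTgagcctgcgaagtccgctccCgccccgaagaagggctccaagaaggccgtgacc
H2bc21: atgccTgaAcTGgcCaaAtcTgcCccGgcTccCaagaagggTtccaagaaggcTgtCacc
H2bc21 (Hist2h2be), whose annotated transcript has a poly(A) signal and no stem-loop, had 2.31 and 5.18 against 4.19 and 6.02 FPKM and overlapping groups. H2bc11 had 6.58 and 18.6 against 8.61 and 11.6 FPKM, also overlapping, with a log2 fold change of -0.15 that was 0.57 without WT replicate 2 and 0.06 without CD274-null replicate 1. The lowest log2 fold change of the class, -1.84, was that of H2bc22, from 11 and 27 against 1 and 4 reads.

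H2ac6, 239 bases from H2bc4 and transcribed the other way, did not follow it. It had 1.42 and 5.48 FPKM in WT against 1.32 and 2.90 in CD274-null LICs, with overlapping groups and a log2 fold change of -0.45 (SE 0.62, adjusted p 0.783). This value was 0.37 without WT replicate 2 and 0.00 without CD274-null replicate 1. The ratio of H2bc4 to H2ac6 was 6.01 and 3.05 in WT against 19.0 and 19.8 in CD274-null LICs. The pair was chosen after its values were seen, and the ratio was not tested.

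The H2A gene with the highest mean, H2ac15, had 4.84 and 3.5 against 2.88 and 2.04 FPKM and non-overlapping groups (log2 fold change -0.66, SE 0.35, adjusted p 0.455). H2ac20 of the chromosome 3 cluster had 2.22 and 3.27 against 0.87 and 1.03 FPKM, from 10 and 13 against 3 and 4 reads, and a log2 fold change of -1.15 (SE 0.38, adjusted p 0.313). H2ac11 was the only H2A gene with a log2 fold change above 0, at 0.67 from 1, 4, 5 and 4 reads.

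H3 genes carry the tail on which many activating and silencing marks are set. H3c1 had 2.59 and 4.6 FPKM in WT against 0.635 and 3.95 in CD274-null LICs, H3c3 had 2.52 and 4.50 against 1.41 and 1.46, and H3c6 had 2.52 and 3.58 against 0.825 and 2.69. The groups of H3c3 did not overlap (log2 fold change -1.0, SE 0.39, adjusted p 0.349). Those of the other two did, and 4 of the 12 H3 genes were at 0 in CD274-null replicate 1 alone.

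The remaining members had few reads. H2bc1 and H1f7, which are testis genes, were listed at 0 in all libraries. Members at 0, these included, numbered 6 and 2 in WT against 13 and 3 in CD274-null LICs. Of the 10 members that were not compared, H1f6 had the highest mean, 0.405 FPKM, and H2ac21, with 0.55, was the lowest that was compared. The difference was less negative among well-covered members: 13 members with at least 100 reads over the 4 libraries had a median log2 fold change of -0.45 with 8 below 0, and 44 with fewer reads a median of -0.77 with 40 below 0. The reads were split at 100 after the values were seen.

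**Figure D5:**
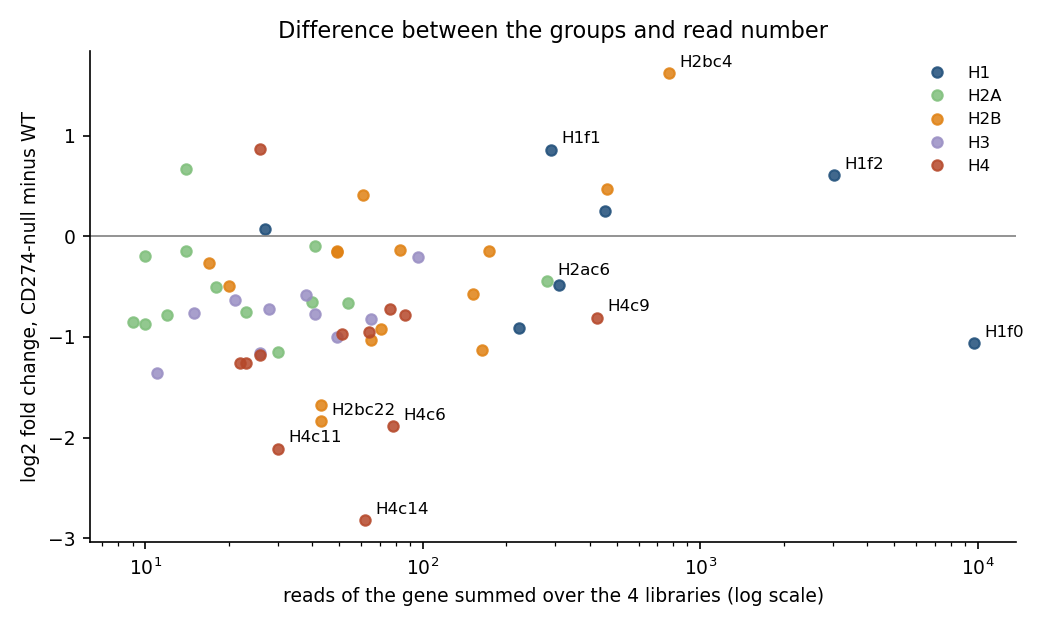
Each point is a histone gene, with its reads summed over the 4 libraries on a log scale (horizontal axis) and its log2 fold change (CD274-null minus WT, vertical axis), colored by class. Members above 0 with over 100 reads are H2bc4, H1f1, H1f2, H1f3 and H2bc21, and H1f0 has the most reads.

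Other features of the genes were set beside the difference as a description. Of core histone genes with a stem-loop, those without a poly(A) signal had a median of -0.78 (26 genes) and those with one of -0.88 (8 genes). The latter include H2bc22, whose signal lies in another transcript than its stem-loop. Core genes with a searchable transcript and no stem-loop had a median of -0.15 (5 genes). The medians were -0.76 and -0.67 in the first and second group of the cluster on chromosome 13 and -0.71 on chromosome 3. Members that shared over 50% of their 50-base stretches had a median of -0.73 (44 genes) and those that shared at most 10% of -0.16 (7 genes, H4c14 and H1f0 among them). Histone transcripts were richer in GC, with a median of 57.8% against 49.8% of the genes tested, and after a GC correction of each library the median of the histone genes was -0.80.

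Genes that make and process histone mRNA were not lower as a group. Of the 30 listed, 14 had a log2 fold change below 0 and 16 above, with a median of 0.03, and 1 was a candidate. For this list and those below, the shares among all genes tested were 1.24% candidates lower and 2.39% higher. Slbp, the stem-loop binding protein gene, had 72.7 and 53.2 FPKM in WT against 67.3 and 89.2 in CD274-null LICs. Npat, the gene of the transcriptional coactivator of the clusters, had 5.82 and 3.73 against 6.13 and 4.72. Casp8ap2 (FLASH), needed for 3' end cleavage, had 13.4 and 8.37 against 11 and 9.42. The groups overlapped for all 3. Srrt (ARS2), a partner of the cap-binding complex, was the candidate, at 93.3 and 76.2 against 152 and 153 FPKM (log2 fold change 0.85, adjusted p = 0.270).

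Of 30 histone chaperone and nucleosome assembly genes, 15 were below 0 and 15 above, with a median of 0.01. The candidate was Tonsl, whose protein binds newly made H4 at replication forks, with 6.66 and 5.88 against 14 and 18.5 FPKM (log2 fold change 1.29, adjusted p = 0.251). Of 37 S phase genes, 10 were below 0 and 27 above, with a median of 0.17, and the candidate was Rfc2 of the clamp loader, at 76.2 and 53.4 against 113 and 126 FPKM (unadjusted p 0.00994, adjusted p = 0.275, limma). Under the alternatives that kept all libraries, 0 S phase genes were candidates except with a pseudocount of 1. S phase genes summed to 2410 and 1680 FPKM in WT against 2330 and 2290 in CD274-null LICs, so that WT replicate 2, the library highest for most histone genes, was the lowest for them.

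Histone variant genes outside the clusters, most of which give mRNAs with poly(A) tails, ranged widely in FPKM. Macroh2a2 had the lowest mean of the 9, with 0.815 and 2.83 FPKM in WT against 6.87 and 1.1 in CD274-null LICs. H3f3b had 335 and 260 FPKM in WT against 247 and 423 in CD274-null LICs, and H2az1 had 83.7 and 64.9 against 82.4 and 95.9. Of the 9, 3 were below 0 and 6 above, with a median of 0.13 and 0 candidates. By limma, 1 of the 9 was under an unadjusted p of 0.05, H2aj, with 40.9 and 47.8 against 31.9 and 29.8 FPKM, and the count of candidates was 0 by voom on recovered reads as well.

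Other RNAs that lack a poly(A) tail differed by kind. Of 127 compared genes of small nucleolar, small nuclear and related RNAs, 38 were below 0 and 89 above, with a median of 0.46. The 110 Snord, Snora and Scarna genes had a median of 0.56 with 87 above 0, while the 12 Rnu genes (small nuclear RNAs and U3) were all below 0, with a median of -1.51, a split made after the values were seen. Candidates were 20 higher and 7 lower, where 2.39% of all genes tested were candidates higher and 1.24% lower. An adjusted p under 0.05 in limma was reached by 1, Snord83b (by 0.0756% of all genes). It had 32.6 and 33.2 against 145 and 136 FPKM (adjusted p = 0.0415). The candidates higher were Snord11, Snord12, Snord15b, Snord22, Snord34, Snord43, Snord47, Snord65, Snord83b, Snord87, Snord88a, Snord88c, Snord95, Snord100, Snora15, Snora31, Snora33, Snora69, Snora81 and Scarna10. The candidates lower were Rnu1a1, Rnu3b1, Rnu11, Rnu12, Scarna2, Snora78 and Snord104. Rnu11 and Rnu12, RNAs of the minor spliceosome, had 18.4 and 14.6 against 5.23 and 6.51 FPKM and 8.64 and 3.93 against 1.51 and 0.669 FPKM. Their number depended on the setting: candidates of the list numbered 7 with the GC or length correction, 4 without moderation and 3 by voom. These genes are short, and FPKM of the shortest gene models is uncertain.

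Markers of other cells moved with the groups or with single libraries. Igkc and Jchain, of plasma cells, were higher in CD274-null LICs (limma adjusted p 0.00245 and 0.0369), Igkc at 8.64 and 7.98 against 214 and 189 FPKM and Jchain at 0.37 and 0.514 against 12.3 and 10.5 FPKM. Of the B cell genes, Cd79b had 12.8 and 36.2 against 35.6 and 37.4 FPKM, and Ms4a1 was at 0 in 3 libraries. The erythroid globin gene Hbb-bs had 0.947 and 26.9 FPKM in WT against 3.01 and 0 in CD274-null LICs, and it was highest in WT replicate 2, as were Hba-a1 and Hba-a2. The 4 T cell markers were each under 1 FPKM in every library. They summed to 0.19 and 0.951 FPKM in WT against 2 and 0.693 in CD274-null LICs. Cd3e, Cd3g and Cd8a, 3 of them, were higher in both CD274-null libraries than in either WT library, as were 25.6% of the genes tested. In WT and CD274-null replicate 2, Cd3e had 0.137 against 0.14 FPKM and Cd8a 0.0314 against 0.0321. Steps of that size arise from library depth at equal reads. Mpo, of the labelled cells, was a candidate with 444 and 403 against 1430 and 925 FPKM, and Ptprc lay the other way, with 72.8 and 86.8 against 53.3 and 53.0 FPKM and non-overlapping groups. Of the cycling markers, Top2a was a candidate, with 66.3 and 47.0 against 102 and 108, and Mki67 had 88.9 and 72.1 against 89.0 and 102. The part of these cells in the histone values was not tested.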

How the data were processed

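The authors made TruSeq RNA v2 libraries, sequenced them on a HiSeq2500 and deposited 1 FPKM value per gene and library. CASAVA 1.8.2, TopHat2 2.0.12 and GRCm38 are in the submitters' processing notes; the program, gene lengths and strand setting behind FPKM are not given in the sources used here. NCBI gene numbers were turned into symbols with RefSeq (GRCm38.p6; 25275 of 27179 had a symbol). The groups were compared on log2(FPKM + 0.5) by limma 3.58.1 (R 4.3.3; eBayes with trend, no covariates) over the 13230 genes whose mean FPKM reached 0.5, and p-values were adjusted by Benjamini-Hochberg. The scale understates changes of low genes. Reads were recovered from the steps between FPKM values of a gene, to within 0.02 of a read. They are lower bounds where all libraries share a factor. Sequences came from GENCODE M21 and RefSeq, by Python 3.11.15. Members and lists were chosen with earlier results of these data known. Named were candidates, the 3 members with the highest mean in each class, H1f0, H1f10, listed candidates, Slbp, Npat, Casp8ap2 and Cd274; other genes in the text were chosen after their values were seen, beside the marker genes. Alternatives were other pseudocounts, filters, scalings, models, GC and length corrections, the replicate block, voom, and leaving out each library. Some marker genes are not reported here.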

Additional observations from a re-analysis of the deposited data

How the results depend on the processing

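The median log2 fold change of the histone genes was below 0 under all 17 alternatives, from -1.06 to -0.21, both with a library left out, and 0 histone genes had an adjusted p under 0.05 in any of them. Beside 3 candidates lower, the count was 1 with a pseudocount of 0.1 (H1f0), without the trend (H2ac20) and with the length correction (H1f5), and the 3 with the GC correction were H1f5, H4c6 and H2ac20. It was 0 without a filter, with a mean FPKM of at least 5 (11 members, 8 below 0), with quantile normalization, equal medians, no moderation and voom. Over all genes tested, candidates lower numbered 164 in the fit as reported. With all libraries kept, they ranged from 51 without moderation to 210 with quantile normalization. Calls with 1 library left out are weakly based, since 1 group is then a single library. The labels do not say that a replicate number marks a shared animal or batch, so the libraries were not treated as paired, and 2 pairs cannot settle it. Deviations of replicate 1 from its group mean correlated at -0.01513 over all tested genes and at 0.3824 over the histone genes. With the replicate block there were 5 candidates lower (H4c11 and H2bc22 beside the 3) and 1 higher (H2bc4). Over all 13230 genes tested, that fit gave 192 lower and 334 higher. With the block and the GC correction there were 7 and 1, against 144 and 140 of 11435 genes. H1f10 changed sign under 4 alternatives.

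Of the mRNA processing genes, 2 were candidates with a pseudocount of 0.1, a mean FPKM of at least 5 and voom, and 0 without the trend and with the GC correction, alone or with the block; leaving out a library gave 0 to 1. Of the chaperone genes, 2 were candidates with the length correction and 0 without moderation and with GC correction and block; leaving out a library gave 0 to 1. No S phase gene was a candidate under any alternative that kept all libraries, except with a pseudocount of 1; leaving out a library gave 0 to 4. The histone variants gave 0 to 1 without a library. The RNAs without a tail gave 4 candidates without moderation, 7 with the GC or length correction, 5 with GC correction and block, 3 with voom, and 12 to 35 without a library. Depth limits single core histone genes, many of which rest on under 10 reads a library. The causes were not tested.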
